A study of Homo sapiens with 27 samples.

Results

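Insertion sites of piggyBac-type transposons were counted around 9 transcription factor genes of the gut epithelium, KLF5, KLF4, SOX9, ELF3, EHF, CDX2, HNF4A, GATA6 and FOXA1, out of 19974 protein-coding genes on chromosomes 1 to 22 and X. The genes were chosen by name, with earlier results of these data known. Each was given a window from 100 kb before to 100 kb after its RefSeq bounds on GRCh38.p14, wide enough to take in nearby enhancers. The cells were HCT116, an established colorectal carcinoma line, which received a transposon and a transposase and then grew for 2 weeks under selection with 3 µg/ml puromycin. The transposon was self-reporting: transcription from inside it runs out into the flanking DNA, and the resulting RNA tells where the insertion lies. The 27 libraries form 9 groups of 3 replicates, and all of them came from the same line. WT_PB is the wild-type transposon with piggyBac, and WT_hyPB the same transposon with the hyperactive protein. WT_rePB and WT_rehyPB pair it with the re-engineered form of each of these proteins. In short_PB and short_hyPB the first 2 proteins act on a short transposon, and in sym_rePB and sym_rehyPB the re-engineered ones act on a symmetric transposon. In the last group the wild-type transposon label stands beside piggyBat (WT_PBat), a related transposase from a bat. The labels do not say what was changed in the re-engineered proteins or in the short and symmetric ends, and they do not say whether replicates were separate transfections, so all p-values measure the spread between these libraries only.

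PiggyBac moves by cutting itself out and inserting at the 4-base target TTAA, and its insertions are known to lie more often in open chromatin, at enhancers and promoters, and near genes bound by bromodomain proteins. The 9 proteins are part of the regulatory network of the intestinal epithelium: KLF5 is a factor of dividing crypt cells and KLF4 one of cells leaving the cycle, ELF3 and EHF are epithelial ETS factors, SOX9 marks crypt progenitors, and CDX2, HNF4A, GATA6 and FOXA1 belong to the endodermal and intestinal identity factors. The files hold insertion positions and no RNA levels, so whether each gene is expressed in these cells was not measured.

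The 12 libraries of the wild-type transposon with a piggyBac protein held 336323 to 570354 distinct sites each, and the other 15 libraries held 2814 to 9212; the first are called deep and the second shallow. Distinct sites were expressed per 10000 sites of the library, called the share, and per Mb of window as well, called the density. Of the deep and shallow piggyBac sites that fell in RefSeq promoters, 97.4% lay on a TTAA. The libraries of a group were not all separate: in the 9 windows together, WT_hyPB replicates 1 and 2 had 508 sites in common, which was 78.3% of the first and 77.1% of the second, against 39.4% of replicate 1 shared with replicate 3. The fits of the 2 comparisons below, and the shares of positions found in several libraries, are therefore also given with replicates 1 and 2 counted as 1 library. Library counts at single positions, such as promoter targets, count these replicates separately.

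The windows of KLF5, ELF3 and EHF were among the most densely hit of all protein-coding genes, and that of FOXA1 was below the typical window. Averaged over the 12 deep libraries, the density was 13.3 for KLF5, 10.2 for ELF3 and 9.82 for EHF, against a median of 4.14 over all windows. KLF4 followed at 7.0 and SOX9 at 6.99, and then came HNF4A at 5.85, GATA6 at 5.46, CDX2 at 4.88 and FOXA1 at 3.20. KLF5 ranked 246 of 19974 windows, ELF3 556 and EHF 627, while FOXA1 ranked 13362. The libraries of KLF5 overlapped in density with those of ELF3 and EHF and lay above all those of KLF4 and of every gene below it. ELF3 overlapped EHF, KLF4 overlapped SOX9, and HNF4A, GATA6 and CDX2 overlapped one another. These sets were not separate: EHF also overlapped KLF4 and SOX9, and ELF3 overlapped SOX9. KLF4 and SOX9 overlapped HNF4A and GATA6, and FOXA1 overlapped CDX2 and GATA6.

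**Figure D1:**
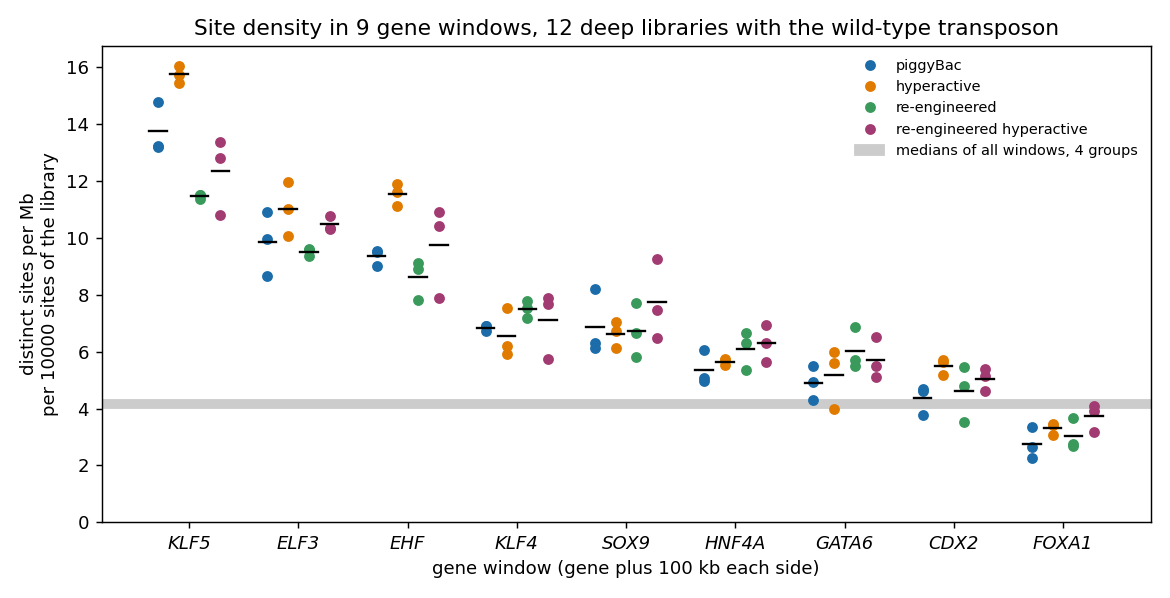
Distinct insertion sites per Mb of window and per 10000 sites of the library (vertical axis) for the 9 genes (horizontal axis); each point is 1 deep library, coloured by transposase, each short line a group mean, and the grey band spans the group medians of all windows. By group mean KLF5 lies highest in all 4 groups and FOXA1 lowest, and for FOXA1 all 12 points lie within or below the band.

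KLF5, a zinc-finger factor of crypt cells and of colorectal carcinoma, had 102 to 144 sites in WT_PB, 142 to 162 in WT_hyPB, 139 to 146 in WT_rePB and 81 to 122 in WT_rehyPB. Its density was 2.59 ± 0.379 (SD, n = 12) times that of the surrounding ring from 100 kb to 1 Mb on each side. Sites piled up in the gene body, at a density of 32.4 ± 9.25, and on the end side, at 23.04 ± 6.29 within 10 kb and 27.1 ± 4.23 from 10 to 25 kb, while the start side had 8.99 ± 3.57 within 10 kb (SD, n = 12 libraries). The gene body stood at the 99.5th percentile of all gene bodies. The fullest 5-kb stretch of the window, chr13:73054976-73059975, begins at the gene's start and held 168 of the sites summed over the deep libraries, against a median of 26 per 5-kb stretch of the window. The window also reaches PIBF1, so its sites cannot be assigned to KLF5 alone. The promoter is printed here because it lies at the edge of that stretch. In it, and in those below, capitals mark TTAA, which is its own reverse complement, so 1 search covers both strands; 40.3% of 22011 RefSeq promoters of 300 bases hold it. The first KLF5 promoter, chr13:73054726-73055025 on the plus strand (RefSeq, GRCh38.p14), holds TTAA at -247 and +21 from the gene's start, and these were hit in 1 and 4 libraries. The second KLF5 promoter in the table holds none.
KLF5 promoter: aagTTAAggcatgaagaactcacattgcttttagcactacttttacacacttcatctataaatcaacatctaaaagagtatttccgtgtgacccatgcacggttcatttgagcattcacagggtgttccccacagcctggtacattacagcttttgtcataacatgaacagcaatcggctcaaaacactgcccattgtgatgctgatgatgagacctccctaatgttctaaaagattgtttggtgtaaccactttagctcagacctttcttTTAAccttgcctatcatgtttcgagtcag

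KLF4, the family's factor of differentiating cells, was densest just outside the gene. Its short gene body had a density of 4.92 ± 4.19, from 0 to 3 sites in a library and above the median gene body of 3.31, while the 10 kb on its end side had 20.4 ± 4.27 and the 10 kb on its start side 15.7 ± 3.76 (SD, n = 12). These 10-kb flanks together stood at the 98.1st percentile of all windows. From 25 kb outward the density was 3.67 to 5.92, against medians of 3.70 and 3.89 over all windows at those distances. The KLF4 promoter holds no TTAA.

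ELF3, an ETS factor of differentiated epithelium, was hit mostly on 1 side. The end side held a density of 28.6 ± 5.98 within 10 kb, 27.2 ± 4.15 from 10 to 25 kb and 14.04 ± 2.10 from 25 to 50 kb, while the start side held 7.46 ± 2.22, 4.43 ± 2.16 and 6.09 ± 2.41 at the same distances (SD, n = 12). In each of these bands the lowest library on the end side lay above the highest on the start side. The gene body, at 7.21 ± 2.14, was close to the start side, whose outermost band, from 50 to 100 kb, held 6.59 ± 1.57. The window was 2.22 ± 0.235 times as dense as its ring and also takes in RNPEP, TIMM17A and LMOD1, so its sites cannot be assigned to ELF3 alone. The ELF3 promoter, chr1:202010337-202010636 on the plus strand, is shown for its single TTAA, at -192. This target was hit in 6 deep libraries, none of them of WT_PB. They include all 3 of WT_hyPB, of which replicates 1 and 2 are linked.
ELF3 promoter: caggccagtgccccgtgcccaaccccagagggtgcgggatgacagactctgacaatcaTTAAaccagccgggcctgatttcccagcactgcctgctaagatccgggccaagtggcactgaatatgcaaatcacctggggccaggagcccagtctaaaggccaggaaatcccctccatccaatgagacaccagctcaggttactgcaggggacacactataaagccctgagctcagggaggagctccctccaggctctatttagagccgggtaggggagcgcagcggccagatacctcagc

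EHF, the related ETS factor of mucosal epithelia, was dense along the gene itself: the gene body had 20.9 ± 3.30, the stretch from 10 to 25 kb on the start side 18.3 ± 7.08 and that on the end side 17.5 ± 2.43 (SD, n = 12). Beyond 25 kb on the end side sites were scarce, with 1 site in 12 libraries from 25 to 50 kb. Its ring was dense too, at 8.27, and the window was only 1.19 ± 0.150 times as dense as the ring. Peaks lay on the gene's own strand in 35.6% ± 5.42 of cases (SD, n = 12), from 26.0% to 44.2% by library, which was the lowest share among the 8 genes with a known strand. The EHF promoter at chr11:34624007-34624306 on the plus strand lies inside the gene's bounds, and its offsets count from that promoter's own start. It is shown because its TTAA at -104 was hit in 10 of the 12 deep libraries, while its other TTAA, at -180, was hit in none. The first was the most of any promoter target of the members with a promoter sequence, which SOX9 lacks.
EHF promoter: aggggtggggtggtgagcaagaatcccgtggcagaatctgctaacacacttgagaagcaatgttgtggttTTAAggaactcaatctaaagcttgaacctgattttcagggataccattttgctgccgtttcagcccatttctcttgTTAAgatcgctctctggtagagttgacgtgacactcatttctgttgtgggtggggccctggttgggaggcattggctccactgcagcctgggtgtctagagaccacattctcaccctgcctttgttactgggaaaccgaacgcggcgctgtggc

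SOX9, the HMG-box factor of crypt progenitors, had a density of 18.8 ± 4.74 in the gene body and 21.1 ± 6.44 in the 10 kb at higher coordinates, against 6.46 ± 3.88 in the 10 kb at lower coordinates (SD, n = 12). The window as a whole did not stand out: the ring around the window, at 7.77, was as dense as the window, with a ratio of 0.902 ± 0.144.

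The windows of the identity factors had lower mean densities than those above, from the 33.1st percentile of all windows at FOXA1 to the 78.2nd at HNF4A. CDX2, the homeobox factor that sets intestinal fate, had 33 to 65 sites per library, with the densest band in the 10 kb on its end side at 10.7 ± 3.57 and 4.93 ± 2.72 in the gene body (SD, n = 12); the window also holds PDX1, URAD and FLT3. Its promoter, chr13:27969266-27969565 on the minus strand, is printed in the gene's sense because it holds the most targets of the member promoters, 4, and all were used: the TTAA at -2 in 8 deep libraries, that at -112 in 4, that at -217 in 3 and that at -185 in 2.
CDX2 promoter: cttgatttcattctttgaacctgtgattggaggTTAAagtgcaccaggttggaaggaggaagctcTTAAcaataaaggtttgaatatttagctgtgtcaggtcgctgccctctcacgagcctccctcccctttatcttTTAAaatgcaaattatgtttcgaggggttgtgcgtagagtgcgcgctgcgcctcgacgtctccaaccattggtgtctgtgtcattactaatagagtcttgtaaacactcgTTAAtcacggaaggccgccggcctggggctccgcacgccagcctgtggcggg

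HNF4A, a nuclear receptor of endoderm, was densest far from the gene, at 12.1 ± 1.3 from 50 to 100 kb on the end side, against 4.90 ± 0.920 in the gene body and 2.91 ± 2.36 within 10 kb of the end (SD, n = 12). That outer band is shared with other genes of the window, which holds GDAP1L1, FITM2, R3HDML, TTPAL, SERINC3 and PKIG. GATA6, a zinc-finger factor of endoderm, had the same shape in a milder form, with 8.62 ± 1.46 from 50 to 100 kb on the end side and 2.55 ± 2.03 within 10 kb of the end, and no other protein-coding gene overlaps its window. FOXA1, a pioneer factor of endoderm, was the sparsest, with 16 to 43 sites per deep library, and its window overlaps MIPOL1 and TTC6. The gene body, at 7.65, stood at the 86.8th percentile of gene bodies, on 0 to 5 sites per library. The 10 kb on its end side, at 12.8 ± 5.05, stood above the median of 4.50 for that distance, while the stretch from 10 to 25 kb on its start side held 0.635 ± 0.960. The GATA6 and FOXA1 promoters hold no TTAA.

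**Figure D2:**
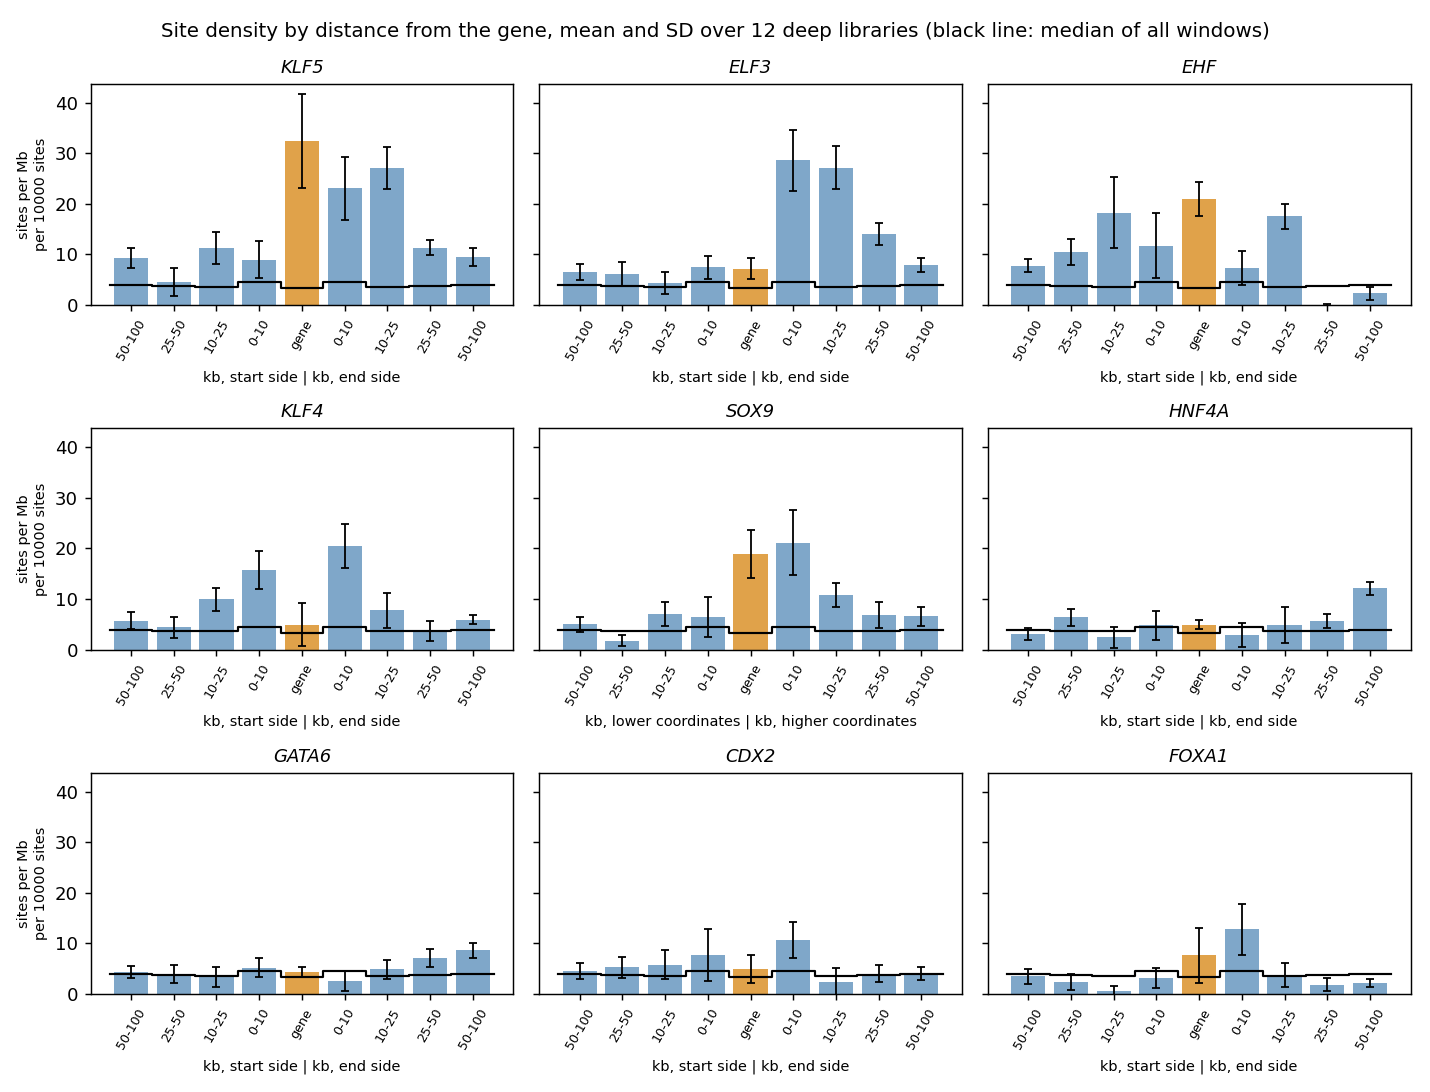
Site density (sites per Mb per 10000 sites) in the gene body (orange) and in bands from 0-10 to 50-100 kb on either side (blue) for each gene, as the mean with SD over 12 deep libraries; the black line is the median of all windows in the same band. KLF5 and SOX9 rise in the gene and on 1 flank, ELF3 on its end side, KLF4 on both flanks around a gene body lower than they are, and HNF4A and GATA6 far out on the end side.

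Set beside other regulators, these 9 windows had a median density of 6.99, and 8 of 9 lay above the median of all windows. Of 30 other regulators of the gut epithelium, 17 lay above it, with a median of 5.01, and of 30 regulators of other lineages 8 did, with a median of 3.31. The 9 genes and both lists were chosen with earlier results of these data known, so these counts only describe them. The densest of the other gut factors were KLF6 at 13.4, TCF7L2 at 12.6, PPARG at 9.94 and PRDM1 at 7.98, and the sparsest was MAF at 0.359. Among the regulators of other lineages NEUROD1 at 12.8 and RUNX1 at 9.14 reached the level of KLF5 and EHF, followed by SOX2 at 5.66 and TBX21 at 5.47. MITF was at 1.11, and POU5F1 had no site in any of the 12 deep libraries, where a count of 0 allows up to 3. Even the sparse FOXA1 window held 347 sites summed over those libraries. Whether reads can be placed in the POU5F1 window was not tested, and the window is counted in its list's median.

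The first comparison asked whether hyperactive piggyBac spread its insertions differently over these genes than the protein it derives from, averaged over the plain and the re-engineered pair. Only EHF rose past an adjusted p of 0.05 in limma, although CDX2 and FOXA1, given below, rose by at least as much. In WT_PB the EHF window held 2.31, 2.31 and 2.19 sites per 10000, and in WT_hyPB 2.88, 2.82 and 2.69. In WT_rePB it held 1.89, 2.21 and 2.16, and in WT_rehyPB 2.65, 1.91 and 2.53. All 3 libraries of WT_hyPB thus lay above all 3 of plain piggyBac, though WT_hyPB replicates 1 and 2 are linked and not separate libraries. The re-engineered groups overlapped through WT_rehyPB replicate 2. KLF5 and CDX2 separated upward in the plain pair too, and ELF3 did in the re-engineered pair. How many of all windows separate in this way was not counted, so these separations only describe the libraries. The log2 difference of EHF was 0.24 ± 0.07 (limma, SE, 6 against 6 libraries) with an adjusted p of 0.0221. Thus 1 of 9 genes was called, where 8.17% of the 18686 windows tested were called, 6.21% higher and 1.96% lower. Taken alone, neither pair passed: the plain pair gave 0.30 ± 0.10 (adjusted p = 0.0722) and the re-engineered pair 0.17 ± 0.10 (adjusted p = 0.354), both 3 against 3 in limma. With the linked libraries averaged the plain pair was at 0.29 ± 0.11 (limma, adjusted p = 0.223). The call was close to the threshold: with WT_hyPB replicates 1 and 2 averaged the adjusted p was 0.0488, and it was 0.106 when libraries were scaled on the median window, 0.0569 with 50 kb flanks, 0.283 with 10 kb flanks and 0.368 with peaks of height 10 or more. It was also lost without WT_PB replicate 3 (0.058), WT_hyPB replicate 1 (0.0535), WT_rePB replicate 1 (0.0636), WT_rehyPB replicate 1 (0.0725) or WT_rehyPB replicate 3 (0.0796), as adjusted p-values of the same limma test. Scaled on the median window, the calls over all windows split into 395 higher and 553 lower, against 1160 and 367 with the library total.

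The other members did not pass. KLF5 stood at 0.15 ± 0.06 on the log2 scale with an adjusted p of 0.0907, and it passed at 0.0357 in limma without WT_rehyPB replicate 1, the setting in which EHF was at 0.0725. Of the rest, ELF3 stood at 0.15 ± 0.07 with 0.170, CDX2 at 0.24 ± 0.11 with 0.145 and FOXA1 at 0.29 ± 0.13 with 0.169 (limma, SE, 6 against 6). KLF4, SOX9, GATA6 and HNF4A lay between -0.07 and 0.06. No member passed the test of whether the hyperactive difference itself differed between the plain and the re-engineered pair: this was -0.13 ± 0.14 for EHF (adjusted p = 0.793) and -0.08 ± 0.12 for KLF5 (adjusted p = 0.861), and 18 of 18686 windows passed that test. With the linked libraries averaged the adjusted p-values of this limma test were 0.902 for EHF and 0.921 for KLF5.

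The second comparison set the re-engineered proteins against those they derive from, averaged over the parental and the hyperactive pair. KLF5 was the only member whose fall in share passed an adjusted p of 0.05 in limma. Its window held 3.29, 2.94 and 2.95 sites per 10000 in WT_PB and 2.53, 2.56 and 2.56 in WT_rePB. It held 3.44, 3.50 and 3.57 in WT_hyPB and 2.41, 2.98 and 2.85 in WT_rehyPB. In both pairs every re-engineered library lay below every library of its counterpart. EHF separated downward in the hyperactive pair too, and KLF4 separated upward in the parental pair. How many of all windows separate in this way was not counted, so these separations only describe the libraries. The log2 difference of KLF5 was -0.31 ± 0.06 (limma, SE, 6 against 6 libraries), with an adjusted p of 0.00018. Thus 1 of 9 genes was called, where 8.1% of windows were called, 4.34% higher and 3.76% lower. Scaled on the median window, the calls over all windows split into 576 higher and 922 lower, against 811 and 703, and KLF5 was at -0.33. With WT_hyPB replicates 1 and 2 averaged it was -0.31 with an adjusted p of 0.000442. Taken alone, the parental pair gave -0.27 ± 0.08 (adjusted p = 0.0429) and the hyperactive pair -0.35 ± 0.08 (adjusted p = 0.0122), both 3 against 3 in limma. With the linked libraries averaged the parental pair missed the threshold, at -0.27 ± 0.09 (adjusted p = 0.0536), and the hyperactive pair, now 2 against 3, was at -0.35 ± 0.10 (adjusted p = 0.0482).

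Close to the gene the values differed more. In the gene body KLF5 had 38, 28 and 34 sites in WT_PB and 20, 40 and 27 in WT_rePB, and as shares of the library 0.869, 0.807 and 0.808 against 0.364, 0.701 and 0.498 per 10000. In WT_hyPB the gene body's share was 0.920, 1.03 and 0.993, and in WT_rehyPB 0.654, 0.519 and 0.608. The re-engineered libraries lay below their counterparts in both pairs. How many other gene bodies separate in this way was not counted, so this separation only describes the libraries. The 5-kb stretch at the gene's start held 15 to 19 sites in WT_PB, 18 to 24 in WT_hyPB, 7 to 10 in WT_rePB and 9 to 10 in WT_rehyPB. These are counts not scaled to depth, and the stretch was picked as the fullest over these same libraries. Groups with many sites there favour its choice, so its counts only describe it and add no support to the difference. With flanks of 10 kb the log2 difference was -0.56 ± 0.10 (adjusted p = 0.000506), and over the part from 10 to 100 kb it was -0.18 ± 0.07 (adjusted p = 0.108). The difference between the near and the far part, -0.38 ± 0.12, did not pass the threshold (limma, adjusted p = 0.0954). With the linked libraries averaged these adjusted p-values were 0.00109 for the 10-kb flanks, 0.185 from 10 to 100 kb and 0.191 for the difference.

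Many of the densest windows changed in the same directions as KLF5 and EHF. Among the 999 windows of the highest 5 percent of density, 33.6% were called lower with re-engineering and 1.3% higher, with a median log2 difference of -0.12, and 97 fell by more than KLF5. In the hyperactive comparison 34.3% of the same windows were called higher, with a median of 0.14, and 121 rose by more than EHF. The densities that define these windows come from the same 12 libraries, more sites give a test more power, and windows of neighbouring genes overlap. With the linked libraries averaged, 28.2% were called lower with re-engineering and 26.3% higher in the hyperactive comparison. Of the 30 other gut regulators 1 was called lower with re-engineering and none higher, and of 29 regulators of other lineages tested 1 was called lower and 1 higher, no larger a share than the 8.1% over all windows. The windows called lower were TCF7L2 at -0.21 (adjusted p = 0.000349) and NEUROD1 at -0.23 (adjusted p = 0.0122), while KLF6 at -0.001 and PPARG at -0.07, dense as well, were not called. In the hyperactive comparison 3 of the 30 gut regulators were called higher and 2 lower. Of the 29 of other lineages 4 were called higher and 1 lower, against 6.21% and 1.96% of all windows. TCF7L2 was called higher there, at 0.18 (limma, adjusted p = 0.00292), while NEUROD1 at 0.10, KLF6 at 0.07 and PPARG at 0.12 were not called. The calls at KLF5 and EHF were not set apart from those of other dense windows by any test.

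For the other members the re-engineering differences were -0.19 ± 0.07 for EHF (adjusted p = 0.0747), 0.23 ± 0.10 for GATA6 (adjusted p = 0.131), 0.17 ± 0.08 for HNF4A (adjusted p = 0.209) and 0.14 ± 0.13 for FOXA1 (adjusted p = 0.564), and KLF4, SOX9, ELF3 and CDX2 lay between -0.06 and 0.12 (limma, SE, 6 against 6). EHF passed in some settings, with an adjusted p of 0.0156 for 50 kb flanks, 0.0311 with strands counted separately, 0.041 with scaling on the median window and 0.0416 without WT_rehyPB replicate 1.

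**Figure D3:**
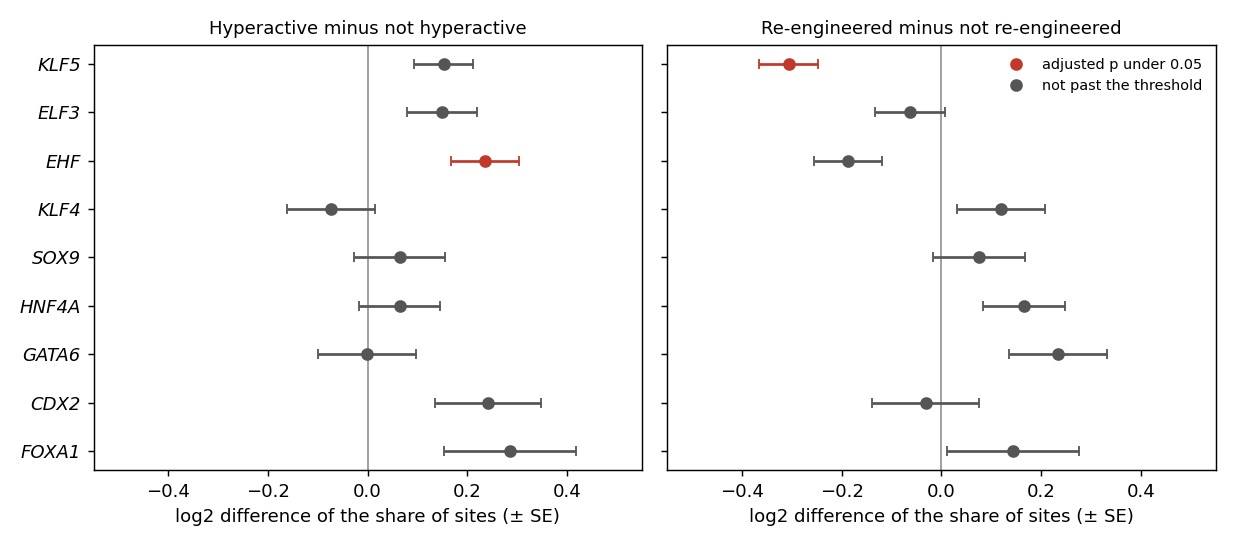
Log2 difference of each window's share of sites, with SE, for hyperactive minus not hyperactive proteins (left) and re-engineered minus not re-engineered proteins (right), 6 against 6 deep libraries; red points passed an adjusted p of 0.05 in limma. EHF at 0.24 on the left and KLF5 at -0.31 on the right are the points that passed.

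**Figure D4:**
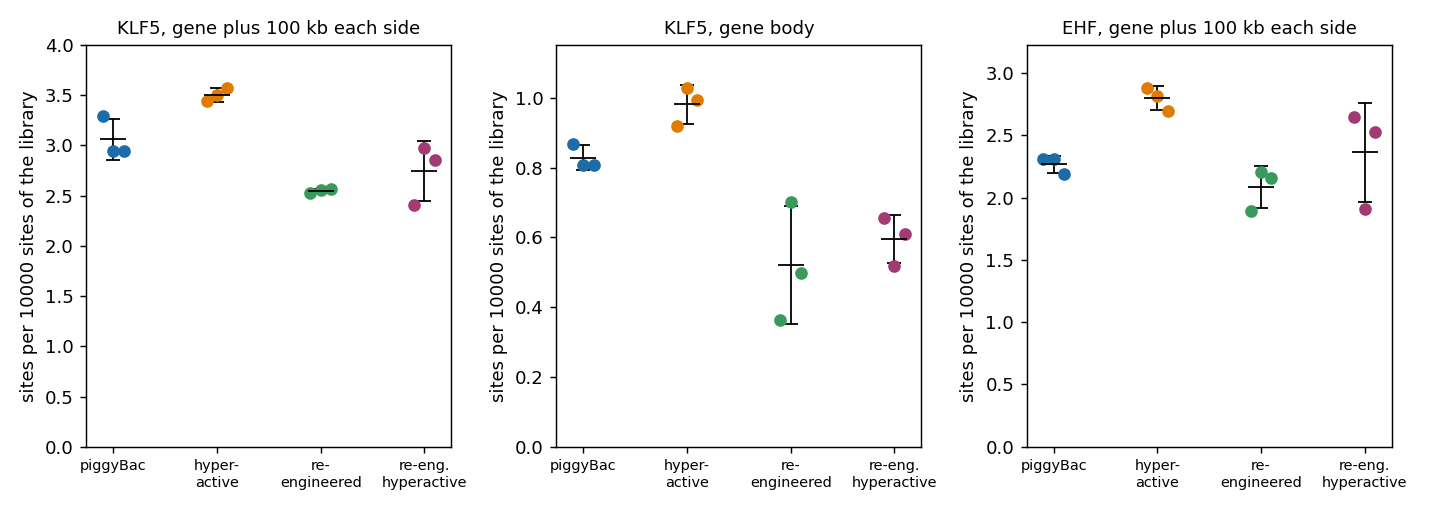
Sites per 10000 sites of the library (vertical axes, from 0) in the KLF5 window, the KLF5 gene body and the EHF window, by transposase group; points are libraries and black marks the mean and SD of 3. The re-engineered libraries lie below their counterparts in both KLF5 panels, and in the EHF panel 1 re-engineered hyperactive library, at 1.91, lies apart from the other two.

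The shallow groups gave few sites per window, too few for the test used above, and they are described by counts. Summed over the 9 windows, a library held 14 to 19 sites in short_PB, 5 to 9 in short_hyPB, 1 to 5 in sym_rePB, 2 to 6 in sym_rehyPB and 9 to 11 in WT_PBat. The counts were set against the number that the share in the wild-type transposon libraries with the same proteins (for piggyBat, with piggyBac) would give, with exact Poisson 95% intervals that cover counting error only. There were 27 such comparisons, with the short and the symmetric libraries each summed over both proteins. The wild-type number lay inside the interval in 23, and none of the 27 was corrected for their number. Counts split by protein are not among the 27.

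ELF3 stood above it in the sums over both altered transposons, though not with every protein. The ELF3 window held 7, 3 and 5 sites in short_PB and 3, 0 and 2 in short_hyPB, in sum 20 (12.2 to 30.9) against 10.6 at the wild-type share. The excess lay with short_PB, whose 15 sites compare with 5.58, below their interval, while the 5 sites (1.62 to 11.7) of short_hyPB compare with 4.97. Without short_PB replicate 1 the sum was 13 (6.92 to 22.2) against 8.68, and without replicate 3 it was 15 against 8.68, so in each case the wild-type number lay inside the interval. It held 1, 1 and 2 in sym_rePB and 2, 1 and 4 in sym_rehyPB, in sum 11 (5.49 to 19.7) against 4.47, and without sym_rehyPB replicate 3 the sum was 7 (2.81 to 14.4) against 3.48, inside the interval. HNF4A also stood above with short_PB alone, at 11 sites (5.49 to 19.7) against 4.104, with sites in all 3 libraries. With short_hyPB it had 2 sites (0.242 to 7.22) against 3.44. The short sum for HNF4A was 13 (6.92 to 22.2) against 7.55, inside the interval. Without short_PB replicate 3 its short_PB count was 6 against 2.73, also inside. KLF5 and GATA6 stood below in the sums: KLF5 had 1 site in the 6 symmetric libraries (0.0253 to 5.57) against 5.72, and GATA6 had none in the 6 short libraries (0 to 3.69) against 5.78. The KLF5 number rests on all the libraries together: the wild-type number lay inside the interval when any 1 of them other than sym_rehyPB replicate 2 was left out. GATA6 stayed below without any 1 of the short libraries. In the short libraries KLF5 held 3, 2 and 1 sites with piggyBac and 0, 3 and 1 with the hyperactive protein, which is 10 (4.80 to 18.4) against 16.1. With piggyBat, KLF5 had 2, 1 and 2 sites, ELF3 2, 3 and 2, EHF 1, 0 and 2, and CDX2 and FOXA1 had none, all within the counting interval of the piggyBac share.

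Most shallow sites lay on positions also listed in a deep library: 24 of 27 positions at ELF3, 13 of 15 at KLF5 and 76.9% over the whole genome, from 71.5% in WT_PBat to 86.1% in short_hyPB. Whether such positions are separate insertions was not tested.

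**Figure D5:**
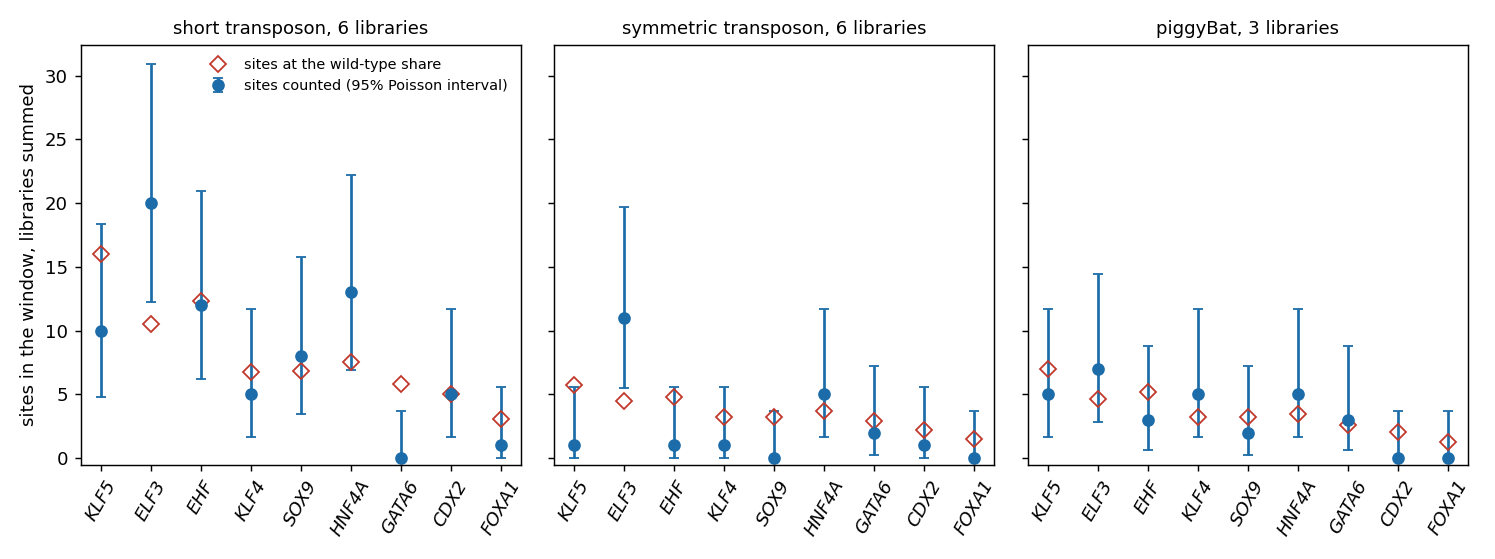
Sites in each gene window summed over the libraries of a shallow group (blue, with exact Poisson 95% intervals for counting error) and the number expected at the share of the matching wild-type transposon libraries (red diamonds), for the short and symmetric transposons and piggyBat. ELF3 lies above its diamond with the short and the symmetric transposon, at 20 and 11 sites.

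Many positions of the dense windows were listed in several libraries. Over the whole genome 3.85% of the positions of the deep libraries were present in 6 or more of the 12; at ELF3 this was 17.1%, at EHF 8.95%, at KLF5 8.72% and at FOXA1 1.69%. With the linked WT_hyPB libraries merged into 1, the shares of positions in 6 or more of 11 libraries were 3.15% over the genome, 14.1% at ELF3, 7.0% at EHF, 7.48% at KLF5 and 1.27% at FOXA1. The position listed in the most libraries was chr1:202063148-202063151, 46.0 kb beyond the end of ELF3, present in all 12 deep and in 4 shallow libraries. At KLF5 it was chr13:73090188-73090191, 12.7 kb beyond the gene's end, in 12 deep and 1 shallow library, and inside EHF it was chr11:34645225-34645228, in 12. Peaks at ELF3 were tall as well: 39.9% ± 6.12 of them had a height of 20 or more, against 18.8% ± 9.40 at FOXA1 and 27.9% ± 3.45 of all peaks (SD, n = 12).

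Over the 9 groups the windows on other chromosomes whose log2 share followed that of KLF5 most closely were RFESD (Pearson's r of 0.998), YOD1 (0.994) and EML4 (0.994). This is a description of 9 group means that differ widely in depth, and 558 of 19468 windows had an r above 0.9.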

How the data were processed

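The authors deposited 1 peak list per library, called separately in each sample. The submitters' processing notes name cutadapt 3.4, HISAT2 2.2.1.0 and the builds hg38 and GRCh38.p5; the peak caller, and whether duplicate reads were removed, is not given in the sources used here. The lists have no header. Judged from the values, their deposited coverage columns are signal (summed and maximum coverage, no peak under a height of 5), not scaled to depth. A last column with 1 constant per file was taken as the file's total, which no label states.

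A site was the first base of the 4-base target: the peak's start on the plus strand, or its end minus 3 on the minus strand, counted once per library. Sites were counted in windows of protein-coding genes of RefSeq GRCh38.p14 plus 100 kb each side, with the library's distinct sites as its size. Windows with a mean of at least 5 sites were tested with limma 3.58.1 (voom, lmFit and eBayes, R 4.3.3), with Benjamini-Hochberg adjustment over all windows and a threshold of 0.05. Other values came from Python 3.11.15 with pandas 2.3.3 and scipy 1.17.1. Tested on simulated data, the fit recovered 80% of 1.5-fold and 98% of 2-fold changes in the hyperactive comparison, with 17 false calls, and 84% and 99% with 6 in the re-engineering comparison. For the symmetric transposon against the wild-type one the same fit made 5708 false calls, and for piggyBat against piggyBac it recovered 0%, so the planned tests of the shallow groups are not used and counts are given instead. The near-to-far test, the counts over the densest windows, the averaging or merging of linked libraries and leaving out single shallow libraries were chosen after seeing the data.

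The 9 genes and both lists of regulators were chosen with earlier results of these data known. From each list the 4 densest and 2 sparsest windows are named, except 1 that is not reported here, with the 3 windows most like the densest member, and the protein-coding neighbours that overlap a member's window. Values of named list windows beyond density, at TCF7L2, NEUROD1, KLF6 and PPARG, were chosen after they were seen.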

Additional observations from a re-analysis of the deposited data

How the results depend on the processing

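Depth limits the shallow groups to a few sites per window, and the windows of neighbouring genes are not independent. The fall of KLF5 with re-engineering kept its direction and its call in all 22 other limma settings, from -0.56 to -0.27. An exact permutation test over all windows gave KLF5 p = 0.005 and an adjusted p of 0.0995. That p is the lowest this test can give with 3 against 3 libraries in 2 pairs, and other windows share it. No window passed 0.05 after adjustment, so the test cannot decide on the call. The same exact permutation test gave EHF in the hyperactive comparison p = 0.015 and an adjusted p of 0.150, where the smallest adjusted p of any window was 0.109. The hyperactive comparison called 0 of 9 genes with median scaling, 50 kb flanks, 10 kb flanks or a peak height of 10, and 0 to 1 without single libraries, where the 1 was KLF5 in place of EHF without WT_rehyPB replicate 1. The re-engineering comparison called 2 with median scaling, 50 kb flanks or strands counted separately, and 1 to 2 without single libraries. Over all windows the hyperactive comparison called 948 with median scaling, 591 with 50 kb flanks, 163 with 10 kb flanks, 584 with a height of 10, 895 with linked libraries averaged, 707 after thinning and 831 to 1392 without single libraries, against 1527; the re-engineering comparison called 951 with 50 kb flanks, 578 with 10 kb flanks, 930 with linked libraries averaged and 929 to 1407 without single libraries, against 1514. The replicate numbers do not pair the libraries (correlations of -0.06 to 0.02), and with the replicate block 1485 and 1492 windows were called, KLF5 at -0.31 and EHF at 0.24 keeping their calls. Members that were never called changed sign: in the hyperactive comparison KLF4 was 0.25 with 10 kb flanks, and GATA6 0.0011 with the replicate block, 0.0899 with 10 kb flanks, 0.00597 with strands separate, 0.0289 after thinning and -0.0577 to 0.0949 without single libraries; in the re-engineering comparison SOX9 was -0.0737 and -0.163 with 50 and 10 kb flanks, HNF4A -0.0159 with a height of 10, FOXA1 -0.0272 after thinning and CDX2 -0.101 to 0.0545 without single libraries. Densities in WT_PB changed with the flank, and nearer the gene HNF4A and GATA6 were lower than with 100 kb flanks (5.36 and 4.91): with 50 kb flanks KLF5 was 17.5, KLF4 8.49, ELF3 12.9, EHF 12.9, CDX2 5.67 and HNF4A 4.02, and with 10 kb flanks KLF5 26.8, KLF4 14.4, SOX9 15.4, ELF3 15.7, EHF 16.8, CDX2 8.36, HNF4A 4.44, GATA6 4.08 and FOXA1 7.51. With a height of 10 KLF4 was 7.27, ELF3 11.7, EHF 9.88 and HNF4A 5.98, and with strands separate KLF4 was 6.97. The cause of these changes was not tested.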
